A study of Mus musculus with 24 samples.

Results

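The genes described here were the collagen and laminin chain genes, chosen by symbol alone: every row whose symbol was Col, a number, a and a number, or Lam, one of the letters a, b or c, and a digit. Of 17545 genes in the table, 43 met that rule, 34 of them collagen and 9 laminin genes. A filter on low values (at least 10 normalized counts in at least 2 of 24 libraries) kept 40 of the 43, that is 31 collagen and 9 laminin genes. The 3 that did not pass were Col14a1, Col6a4 and Col9a1, which reached at most 8.14, 6.46 and 18.8 normalized counts in any library. A further 12 collagen and laminin genes of the mouse annotation, among them Lama2, Lamc3, Col4a3 and Col4a4, were not analysed here. Within the 43, the 11 basement membrane members were Col4a1, Col4a2 and the 9 laminin chains, and the 3 fibrillar members were Col1a1, Col1a2 and Col3a1.

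Laminins are secreted trimers of an alpha, a beta and a gamma chain that polymerise on the cell surface, and collagen IV trimers form a second network that is tied to the laminin sheet by nidogens and perlecan. Early embryonic epithelia and the endoderm of the implanting embryo make both. Fibrillar collagens I and III instead form the rope-like fibres of connective tissue and are products of mesenchymal cells, including the embryonic fibroblasts commonly used as a feeder layer under mouse embryonic stem cells.

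The cells were embryonic stem cell lines from mouse blastocysts of 4 genotypes: Cdc14ab KO, lacking both CDC14 phosphatases, Cdc14b KO, Cdc14a KO and wild type. Each genotype had 2 lines, called clone 1 and clone 3 in the labels, and each line was sampled at days 0, 2 and 7, giving 24 libraries in 12 groups of 2. Day 0 cells had been kept in LIF on feeders and were passed over gelatin at low density to leave the feeders behind. Differentiation toward neural cells began when LIF was replaced by N2B27 with EGF and FGF2, and at day 6 the growth factors were withdrawn and the cells moved to plates coated with laminin. The Cdc14ab KO and Cdc14b KO lines are called Cdc14b-null below, and the Cdc14a KO and wild-type lines Cdc14b-intact. The labels do not say whether the clones of a genotype came from separate embryos, so every p-value rests on the variation among these lines alone, and the sources used here do not say how the alleles were made. For wild-type clone 3 at day 7, one label field describes the cells as not differentiated, while the title and the treatment place them at day 7, and the title was followed.

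RNA was read from the 3′ ends of transcripts with a strand-specific kit, and 6422883 to 10856721 reads per library were assigned to genes. Levels are given as normalized counts, meaning reads divided by 1 size factor per library; since reads come from transcript ends they were not divided by length. Levels of different genes are therefore shown side by side but not ranked. Cdc14b was read at 96.7 to 325 normalized counts in the lines in which it was knocked out and at 103 to 288 in the others over the 3 days, and Cdc14a at 4.22 to 25.9 where it was knocked out and 4.37 to 28.0 elsewhere. A 3′ tag need not lie in a deleted part, so these values do not check the genotypes. One library, Cdc14ab KO clone 3 at day 7, touches many results. It was above the 7 other day 7 libraries in members such as Col4a1, Col4a2, Lama1 and Lamb1. It was below them in others such as Col1a1, Col1a2 and Col3a1, and within their range in others such as Lama5 and Col18a1. Another, Cdc14ab KO clone 1 at day 0, was low in Lamb1. It was one of 3 libraries in which the single transcript Gm42418 took 7.97% to 10.8% of reads, against 1.33% to 5.11% in the others.

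The start of the Col4a1 and Col4a2 genes is shown first because the basement membrane results turn on this pair, which lies head to head on chromosome 8. In GRCm38, Col4a1 (ENSMUSG00000031502.11) runs from 11198423 to 11312826 on the minus strand and Col4a2 (ENSMUSG00000031503.13) from 11312805 to 11449287 on the plus strand. Their RefSeq promoter windows (GRCm38.p6), each from 250 bases before to 50 after the start of a gene, share 78 bases, chr8:11312777-11312854. The same 30 bases of that overlap, chr8:11312800-11312829, are given on the strand of each gene, with the letters GGGCGG, or their reverse complement CCGCCC, in capitals. Lamb1, a laminin chain, and Col1a2, a fibrillar member, are shown for comparison, at chr12:31265199-31265228 (plus strand) and chr6:4505401-4505430 (plus strand). The RefSeq window of Col1a2 lies inside the GENCODE M21 gene, which starts at 4504814, so this stretch is not the start of that gene model.
Col4a1: cccttggagacgCCGCCCgcgcactgccga
Col4a2: tcggcagtgcgcGGGCGGcgtctccaaggg
Lamb1: ttgctgtcctCCGCCCcctCCGCCCccgct
Col1a2: aagggcgagagaGGGCGGgtggctggggag
Searched on both strands, GGGCGG was found in the windows of 22 of the 30 members matched by symbol (73.3%) and in 38.2% of 27025 genes with a window. The letters CCAAT were found in 13 of the 30 (43.3%) and 41.1% of all genes, and TATAAA in 2 of the 30 (6.67%), Col3a1 and Col13a1, and 15.7% of all genes. These are matches of letters in a window of fixed length and not mapped sites.

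Over the protocol, all 4 measured collagen IV chains rose on average over the genotypes. The fibrillar collagens rose with wide spread between libraries, and most laminin chains did not pass the test. Between day 7 and day 0, averaged over the 4 genotypes, 24 of 40 members were higher and 2 were lower at a limma adjusted p under 0.05, where 38.2% of all 16158 genes tested were called, 20.9% higher and 17.4% lower. The median log2 fold change was 1.35 over the 40 members and 0.03 over all genes. Of the 11 basement membrane members 5 were higher, with a median of 0.86, and all 3 fibrillar members were higher, with a median of 3.52. In bulk RNA, more cells of a type and more RNA per cell cannot be told apart.

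Col4a1, which pairs with Col4a2 in the most widespread collagen IV trimer, had a lowest, median and highest level of 37.8, 53.0 and 134 normalized counts at day 0, of 57.8, 118 and 207 at day 2, and of 292, 455 and 1479 at day 7. Col4a2 read 9.50, 14.4 and 32.9 at day 0, 18.9, 57.0 and 83.6 at day 2, and 134, 286 and 1006 at day 7. For both genes all 8 day 7 libraries lay above all 8 libraries of day 0 and of day 2, and the highest day 7 library was Cdc14ab KO clone 3. Among all genes, 5.42% had day 7 libraries wholly above those of day 0 and 3.17% wholly below. Such shares were not counted for day 7 against day 2. Between day 7 and day 0, Col4a2 rose 18.0-fold (log2 fold change 4.17 ± 0.35 SE, limma adjusted p = 1.22e-07) and Col4a1 8.62-fold (3.11 ± 0.29, adjusted p = 4.48e-07). Both remained past the threshold when any single library was left out. At day 2 against day 0 the changes were smaller, at 1.53 ± 0.35 for Col4a2 (adjusted p = 0.00696) and 0.90 ± 0.29 for Col4a1 (adjusted p = 0.0459). The log2 ratio of Col4a1 to Col4a2 reads had a median of 2.05 at day 0, 1.06 at day 2 and 0.60 at day 7, with the day 7 libraries at 0.24 to 1.13 overlapping those of day 0, at 0.44 to 2.70.

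The other collagen IV genes measured, Col4a5 and Col4a6, lie next to each other on the X chromosome and form a trimer found in particular basement membranes such as those of skin and smooth muscle. Both were near 0 at day 0, where Col4a6 had at most 5.34 normalized counts and Col4a5 at most 3.80. At day 7 Col4a6 read 10.8 and 2.52 in Cdc14ab KO, 3.04 and 12.2 in Cdc14b KO, 32.6 and 50.5 in Cdc14a KO, and 23.2 and 53.8 in wild type (clones 1 and 3 in each). Col4a6 rose by 3.04 ± 0.48 on the log2 scale between day 7 and day 0 (adjusted p = 9.93e-05) and Col4a5 by 2.28 ± 0.49 (adjusted p = 0.00135), and the days overlapped for both. At these low levels the pseudocount of 1 shrinks the fold change.

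**Figure D1:**
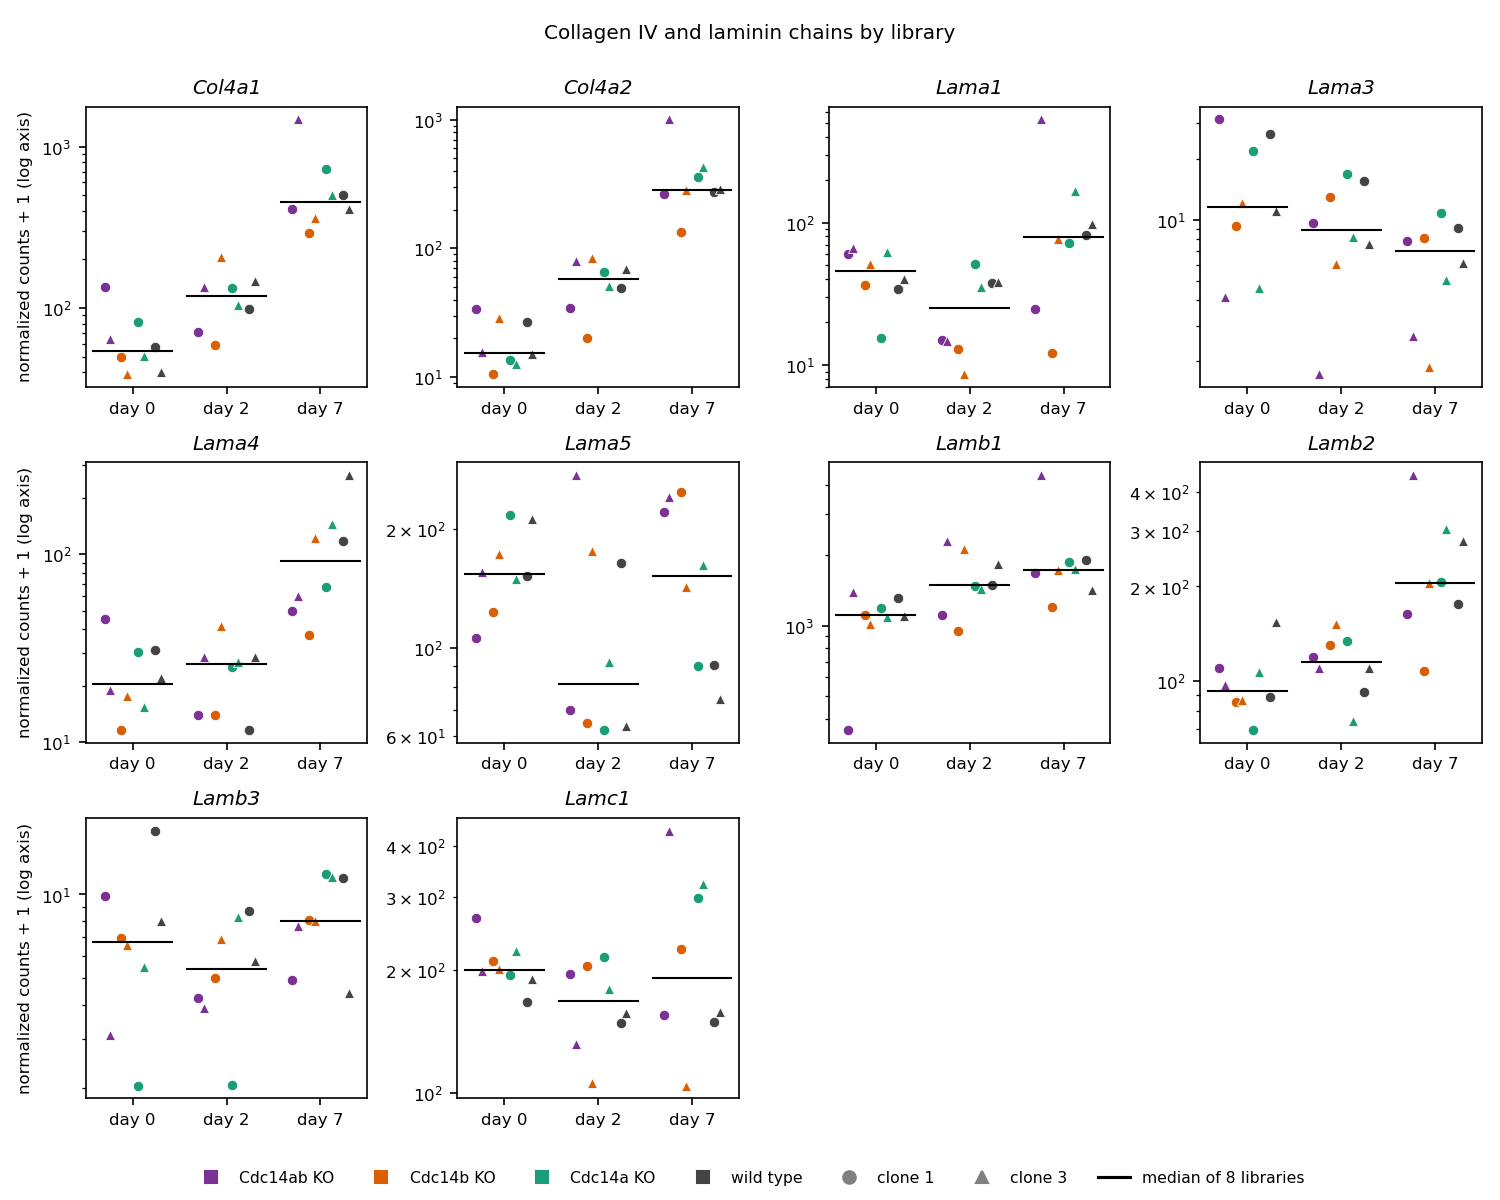
Normalized counts plus 1, on a log axis, of Col4a1, Col4a2 and the laminin chains named in the text at days 0, 2 and 7; each point is 1 library, colour gives the genotype, shape the clone, and the bar the median of 8 libraries. Col4a1 and Col4a2 step up at day 7 in every library, while for laminin chains such as Lamc1 and Lama5 the days overlap and Cdc14ab KO clone 3 lies on top at day 7 in Lama1, Lamb1, Lamb2 and Lamc1.

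Among the laminins, Lamb1, Lamb2 and Lama4 rose between day 7 and day 0. Lamb1, the beta chain of the embryonic laminin, had a lowest, median and highest level of 357, 1103 and 1387 normalized counts at day 0, of 947, 1484 and 2285 at day 2, and of 1203, 1731 and 4398 at day 7. Most libraries were close together, with Cdc14ab KO clone 1 far below the rest at day 0 and Cdc14ab KO clone 3 far above them at day 7. Lamb1 was higher at day 7 than at day 0 by 0.88 ± 0.27 on the log2 scale (limma adjusted p = 0.0142), and by 0.70 (adjusted p = 0.0456) without the high library. Lamb2, which replaces Lamb1 in laminins of mature membranes and synapses, read 106, 204 and 453 at day 7, against 68.6, 91.8 and 153 at day 0. It rose by 1.16 ± 0.24 (adjusted p = 8.61e-04), and the ranges of the days overlapped. Lama4, an alpha chain known from vessel walls and mesenchymal cells, read 36.5, 91.3 and 264 at day 7, against 10.7, 19.5 and 44.3 at day 0, with overlap between the days. Lama4 rose by 2.03 ± 0.35 between day 7 and day 0 (adjusted p = 2.31e-04) and by 2.04 ± 0.35 between day 7 and day 2 (adjusted p = 6.46e-04), but stood at -0.01 ± 0.35 between day 2 and day 0 (adjusted p = 0.987).

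The alpha and gamma chains that complete the embryonic laminin did not pass the test between day 7 and day 0. Lama1, its alpha chain, read 14.6, 44.5 and 65.4 normalized counts at day 0, 7.60, 24.1 and 50.6 at day 2, and 11.1, 77.7 and 530 at day 7. The 530 was Cdc14ab KO clone 3, and the other 7 libraries ended at 165. Its log2 fold change was 0.86 ± 0.51 between day 7 and day 0 (limma adjusted p = 0.191; edgeR gave 0.0402 and DESeq2 0.0137), and 0.30 without that library. Between day 7 and day 2 Lama1 rose by 1.76 ± 0.51 (adjusted p = 0.0194), and by 1.21 without that library (adjusted p = 0.0347). The call was lost without Cdc14b KO clone 3 at day 7 (adjusted p = 0.0501).
Lamc1, the gamma chain shared by most laminins, stood at 103 to 436 at day 7, against 165 to 266 at day 0, a log2 fold change of 0.03 ± 0.22 (adjusted p = 0.926). Lama5, the alpha chain of the laminin that supports pluripotent cells in culture, stood at 73.4 to 248 at day 7, against 105 to 216 at day 0, a change of -0.12 ± 0.30 (adjusted p = 0.768). Lama3 and Lamb3, chains of laminins in epithelia such as skin, were read little. Lama3 had a median of 6.00 at day 7, against 10.6 at day 0, and Lamb3 had 7.04 at day 7, against 5.75 at day 0. Neither passed the test (adjusted p = 0.112 and 0.481), although with the cell line as a block Lama3 was called lower, at -1.10 (adjusted p = 0.0214), as it was by DESeq2 (adjusted p = 0.0488). Lamc1 shares its strand with the overlapping gene Gm38009, as do Col5a2 with Gm38211 and Col25a1 with Gm43210, so reads of these pairs may have been divided between them.

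The fibrillar members were higher at day 7 in all 3 genes, and at day 2 none of them passed the test. Col1a1, the main chain of collagen I, had a lowest, median and highest level of 37.1, 96.0 and 196 normalized counts at day 0, of 37.9, 261 and 677 at day 2, and of 159, 1532 and 2331 at day 7. Col1a2, its partner chain, read 20.1, 37.3 and 107 at day 0, 22.6, 69.3 and 328 at day 2, and 37.8, 177 and 343 at day 7. Col3a1, which forms the fine fibres of soft tissues, read 1.00, 4.38 and 9.60 at day 0, 1.93, 7.66 and 83.6 at day 2, and 13.4, 95.1 and 312 at day 7. Col3a1 was the 1 gene of the 3 whose day 7 libraries all lay above those of day 0, and the lowest day 7 library of each of the 3 genes was Cdc14ab KO clone 3. Between day 7 and day 0, Col3a1 rose 19.7-fold (log2 4.30 ± 0.60, adjusted p = 3.13e-05), Col1a1 11.4-fold (3.52 ± 0.61, adjusted p = 2.72e-04) and Col1a2 3.56-fold (1.83 ± 0.56, adjusted p = 0.0164). Between day 2 and day 0 none of the 3 passed limma's test, with changes of 1.16 ± 0.61 for Col1a1, 1.12 ± 0.60 for Col3a1 and 0.83 ± 0.56 for Col1a2 (adjusted p = 0.215, 0.224 and 0.344). DESeq2 called Col3a1 there (adjusted p = 0.0206).

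**Figure D2:**
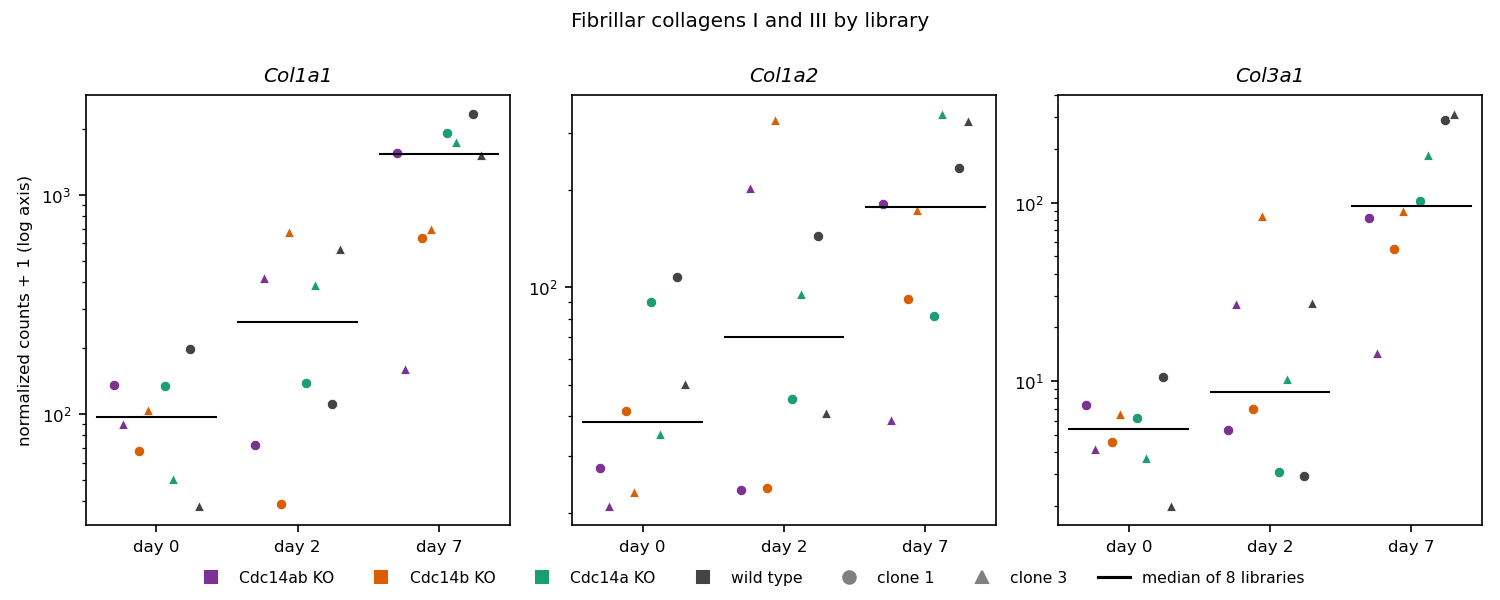
Normalized counts plus 1, on a log axis, of Col1a1, Col1a2 and Col3a1 at days 0, 2 and 7; each point is 1 library, colour gives the genotype, shape the clone, and the bar the median of 8 libraries. At day 2 the 4 clone 3 libraries of Col1a1 (386 to 677) and of Col3a1 lie above the 4 clone 1 libraries, and at day 7 Cdc14ab KO clone 3 is the lowest point in each panel.

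Several fibroblast marker genes rose with the fibrillar members over the days, and some did not. Of 14 markers tested (among them Acta2, Pdgfrb, Dcn, Lum and S100a4), 7 were higher and 2 lower at day 7 than at day 0, where 20.9% of all genes were higher and 17.4% lower. The rises were led by Acta2 (log2 4.13 ± 0.59, adjusted p = 4.70e-05) and by Mmp2 (1.76 ± 0.34, adjusted p = 5.56e-04). The summed level of the 14 ran from 943 to 3895 normalized counts at day 7, against 325 to 1067 at day 0. Acta2 alone read 538 in Cdc14ab KO clone 3 at day 7 and 364 to 3093 in the other libraries of that day. No marker was at 0 in all libraries of a day, while Postn and Lum had medians under 3 at day 0. S100a4 went the other way, lower at day 7 by -2.99 ± 0.89 (adjusted p = 0.0147). In Cdc14ab KO clone 3 at day 7, the lowest library of that day for each fibrillar member, the markers parted. Pdgfra (38.6, against 4.34 to 17.9), Pdgfrb and Postn were above the other libraries of day 7. Thy1, Lum, Fbn1, Twist1, Prrx1, Tagln and Mmp2 were below them, and the rest lay within their range. The part of fibroblasts in the fibrillar result was not tested.

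At day 2 Col1a1, Col3a1 and the summed fibroblast markers were higher in clone 3 than in clone 1 in every genotype, and Col1a2 was not. Col1a1 read 417, 677, 386 and 565 normalized counts in clone 3 of Cdc14ab KO, Cdc14b KO, Cdc14a KO and wild type, against 71, 37.9, 137 and 110 in clone 1 of the same genotypes. Col3a1 read 9.33 to 83.6 in clone 3 and 1.93 to 5.98 in clone 1. Col1a2 read 202, 328, 94.4 and 39.8 in clone 3, against 22.6, 22.9, 44.3 and 143 in clone 1 of the same genotypes, so that wild type ran the other way. The summed fibroblast markers read 1006 to 6738 in clone 3 and 366 to 641 in clone 1, with S100a4 alone at 4639 in the highest library. At that day 9 of the 40 members had all clone 3 libraries above all clone 1 libraries, where 5.68% of all genes did, among them Col16a1, Col1a1, Col3a1, Col5a1, Col7a1, Col8a1, Col8a2 and Lama4. Col9a2 and Lama3 were wholly lower in clone 3, where 3.48% of all genes were. These comparisons of clone numbers are descriptions with no test, because the clones of different genotypes are different lines. At day 0 and day 7 the clones overlapped for Col1a1 and for Col3a1.

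Set side by side, the summed basement membrane members read 1237 to 2037 normalized counts at day 0, 1477 to 3119 at day 2 and 2297 to 8724 at day 7. The summed fibrillar members read 86.2 to 313 at day 0, 66.8 to 1089 at day 2 and 210 to 2856 at day 7. The log2 ratio of fibrillar to basement membrane reads had a median of -3.80 at day 0, -2.67 at day 2 and -0.84 at day 7. In the 4 Cdc14b-intact libraries of day 7 it lay between -0.87 and -0.24, and in the 4 Cdc14b-null ones between -5.38 and -0.73, the lowest being Cdc14ab KO clone 3. Lamb1 alone took 8.82% to 40.7% of the reads of all 43 members in a library.

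**Figure D3:**
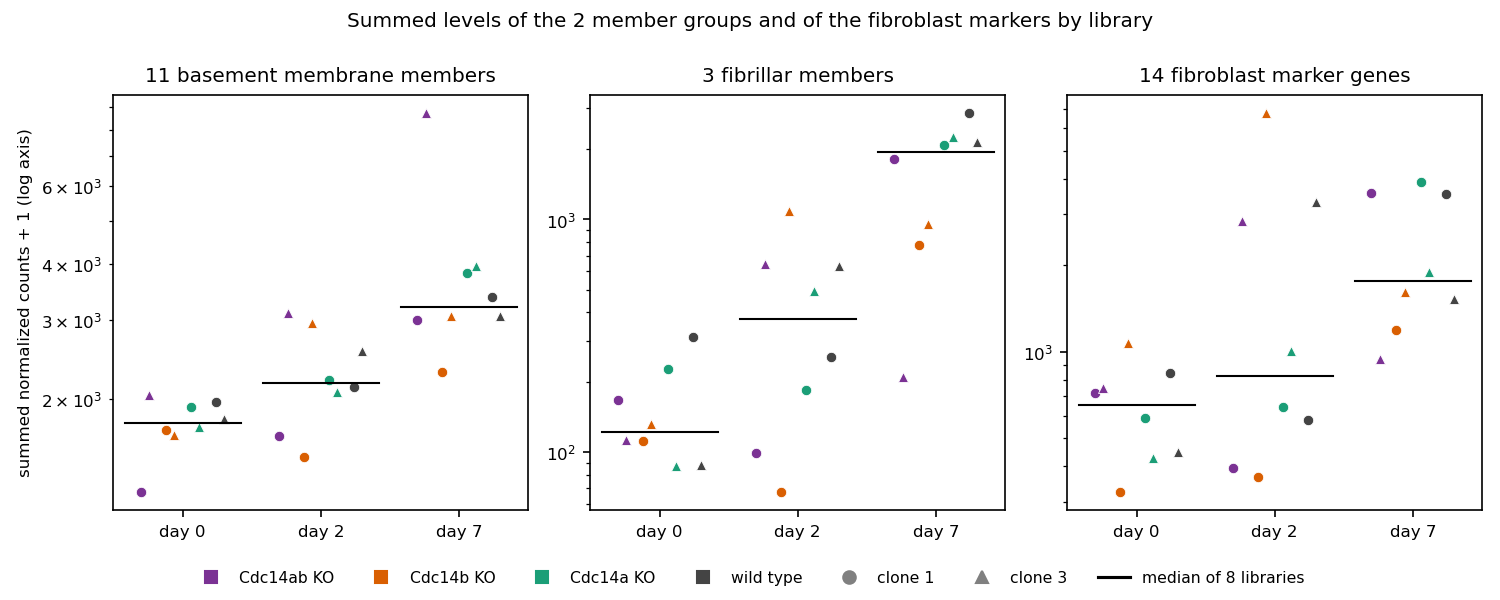
Summed normalized counts plus 1, on a log axis, of the 11 basement membrane members, the 3 fibrillar members and 14 fibroblast marker genes at days 0, 2 and 7; each point is 1 library and the bar the median of 8. At day 7 Cdc14ab KO clone 3 has the highest basement membrane sum (8724) and the lowest fibrillar sum (210), and at day 2 the clone 3 libraries have the highest fibrillar and fibroblast marker sums.

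Beyond these 2 groups, the members with the smallest adjusted p between day 7 and day 0 came from several collagen classes. Col26a1, which encodes a collagen first described in the developing testis and ovary, read 37.8 to 367 normalized counts at day 7, against 7.39 to 27 at day 0, and rose 10.9-fold (log2 3.44 ± 0.39, adjusted p = 3.12e-06). Between day 2 and day 0 it stood at 0.07 ± 0.39, with 2.53 to 29.0 normalized counts at day 2. Col22a1, a collagen of tissue junctions, rose by 2.83 ± 0.34 (adjusted p = 4.93e-06). Col2a1, the cartilage collagen that is also made by notochord and neuroepithelium, read 7.39 to 25 at day 0, 62.8 to 182 at day 2 and 22.7 to 162 at day 7. It was the member with the smallest adjusted p between day 2 and day 0 (log2 2.86 ± 0.30, adjusted p = 7.62e-06). All its day 2 libraries lay above those of day 0, and the share of all genes that did so was not counted. Col2a1 was 2.17 ± 0.30 higher at day 7 than at day 0. Of the other fibril-forming chains, Col5a2 rose by 2.32 ± 0.49, Col11a1 by 1.35 ± 0.23 and Col5a1 by 1.34 ± 0.35 (adjusted p = 0.00128, 1.69e-04 and 0.00591). Other members higher at day 7 than at day 0 were Col23a1 (2.58), Col13a1 (1.43) and Col25a1 (1.31) of the transmembrane collagens, Col16a1 (2.30), Col12a1 (2.27) and Col20a1 (1.60) of the fibril-associated ones, Col6a5 (1.63) and Col8a1 (2.48), all log2 fold changes.

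Only Col18a1 and Col9a3 were lower at day 7 than at day 0 in this test. Col18a1, a basement membrane proteoglycan whose C-terminal fragment is endostatin, read 906 to 1886 normalized counts at day 0, 1364 to 1814 at day 2 and 645 to 1180 at day 7. It fell by 0.60 on the log2 scale between day 7 and day 0 (SE 0.14, adjusted p = 0.00284) and by 0.89 between day 7 and day 2 (SE 0.14, adjusted p = 3.93e-04). All its day 7 libraries lay below those of day 2, and the share of all genes that did so was not counted. Col9a3, a chain of the cartilage collagen IX, read 4.65 to 9.78 at day 7, against 8.44 to 21.8 at day 0. It fell by 0.90 (SE 0.34, adjusted p = 0.0445), and missed the threshold with the cell line as a block (adjusted p = 0.0518). Collagen VI chains Col6a1, Col6a2 and Col6a3, the anchoring collagen Col7a1 and Col8a2, Col9a2, Col27a1 and Col5a3 did not pass, with log2 fold changes from -0.21 to 0.54.

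The day 2 step took in fewer members. Between day 2 and day 0, 8 of 40 members were higher and 1 lower, where 14.9% of all genes were called, 8.5% higher and 6.36% lower: Col2a1, Col6a5, Col4a2, Col11a1, Col5a2, Col4a5, Col4a6 and Col4a1 rose, and Col5a3 fell by 1.09 (SE 0.31, adjusted p = 0.0227). None of the 9 laminin chains was among them by limma, which gave 1 at an unadjusted p under 0.05, Lamb1. With the cell line as a block Lamb1 was called higher at 0.60 (adjusted p = 0.0211) and Col16a1 at 1.39 (adjusted p = 0.00949, against 0.0945 without the block). Without the 3 day 2 libraries highest in fibroblast markers, Col4a2 stood at 1.05 and Col4a1 at 0.49. Those 3 libraries were also the 3 highest of day 2 for Col4a1 and for Col4a2. A smaller change of both genes was thus fixed by the choice of libraries, and the part of fibroblasts in it was not tested. Between day 7 and day 2, 17 were higher and 1 lower, where 21.4% of all genes were called, 12.1% higher and 9.3% lower. Those higher included Col4a2 (2.65 ± 0.35), Col4a1 (2.21 ± 0.29), Col3a1 (3.18 ± 0.60), Col1a1 (2.36 ± 0.61), Lama4, Lamb2 (0.95 ± 0.24) and Lama1.

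**Figure D4:**
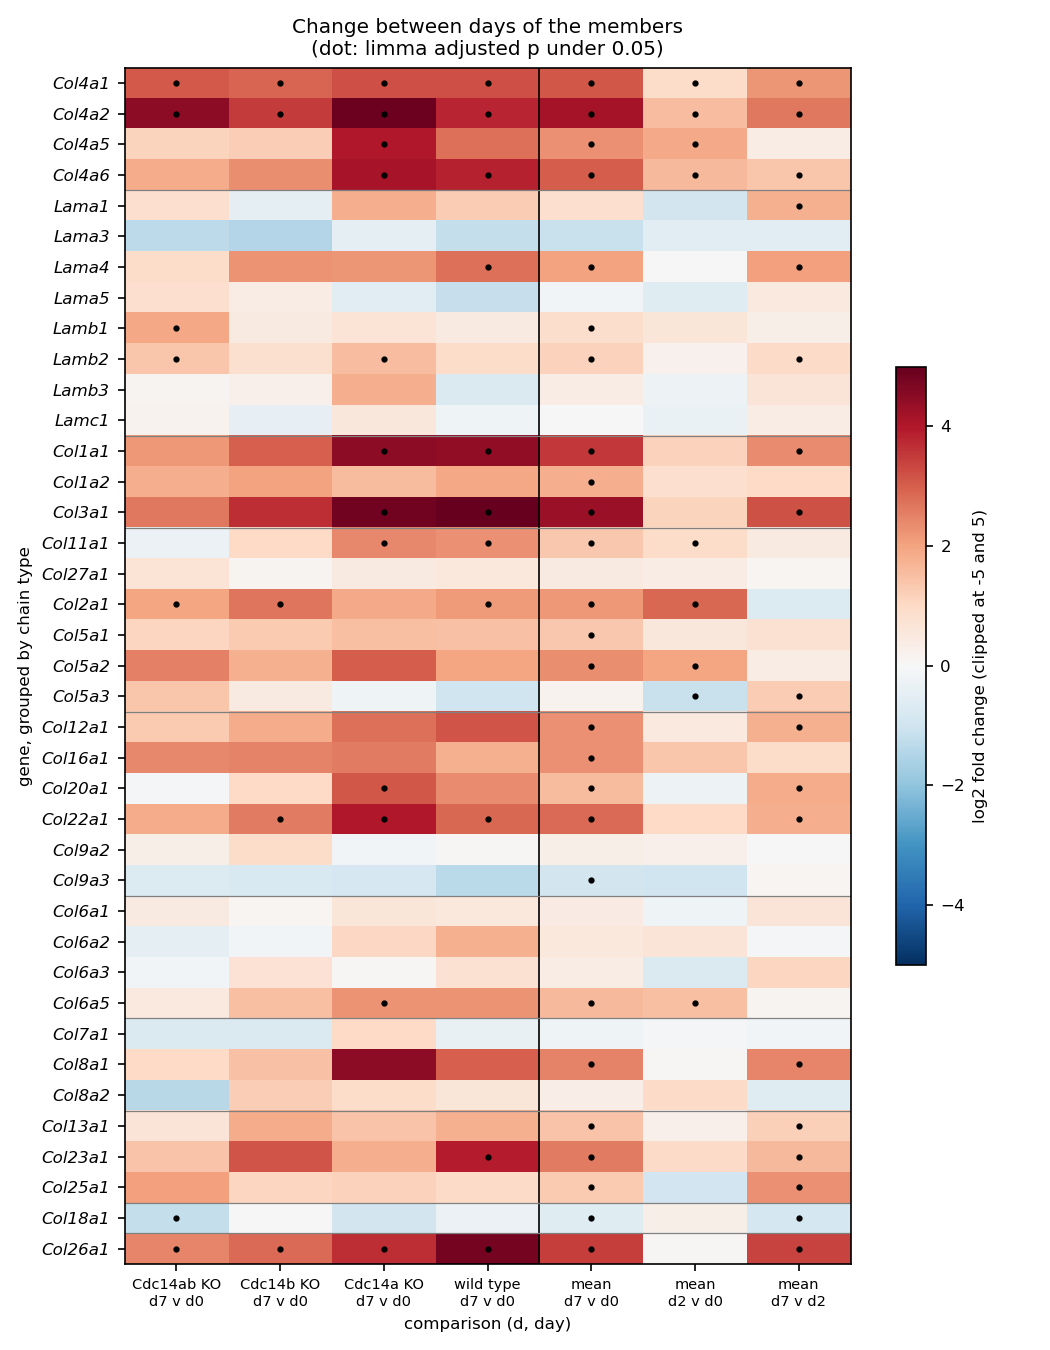
Log2 fold changes of the members between days, for each genotype (day 7 against day 0, 2 libraries against 2) and for the mean of the 4 genotypes; red is higher and blue lower on the later day, clipped at 5 in either direction, and a dot marks a limma adjusted p under 0.05. Col4a1, Col4a2 and Col26a1 carry a dot in all 4 genotypes, and Col1a1 and Col3a1 in Cdc14a KO and wild type.

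Taken genotype by genotype, Col4a1 and Col4a2 passed the test in all 4 while of the fibrillar members Col1a1 and Col3a1 passed in Cdc14a KO and wild type and Col1a2 passed in no genotype. In Cdc14ab KO, 6 members were higher and 1 lower between day 7 and day 0, where 16.8% of all genes were called, 9.51% higher and 7.34% lower. In Cdc14b KO 5 were higher, where 4.62% were called, 2.54% higher and 2.07% lower. In Cdc14a KO 12 were higher, where 9.26% were called, 6.28% higher and 2.98% lower. In wild type 11 were higher, where 7.35% were called, 5.46% higher and 1.89% lower. Col4a1, Col4a2 and Col26a1 were higher in all 4. Col4a6 was called higher in Cdc14a KO and wild type, and Col4a5 in Cdc14a KO alone. Col4a1 rose by 3.07 ± 0.59 in Cdc14ab KO, 2.89 ± 0.59 in Cdc14b KO, 3.24 ± 0.59 in Cdc14a KO and 3.24 ± 0.59 in wild type. Col4a2 rose by 4.48 ± 0.70, 3.49 ± 0.70, 4.91 ± 0.70 and 3.81 ± 0.70 in the same order. Col1a1 rose by 4.47 ± 1.22 in Cdc14a KO and 4.44 ± 1.22 in wild type (adjusted p = 0.0298 and 0.0336), and Col3a1 by 4.84 ± 1.20 and 6.04 ± 1.20 (adjusted p = 0.0177 and 0.00545). In Cdc14ab KO, where Lamb1 and Lamb2 were also called, 1 member was left without clone 3 of day 7, and 2 and 4 without clone 1 and clone 3 of day 0. Col1a2 stood at 1.80, 2.03, 1.57 and 1.92 in Cdc14ab KO, Cdc14b KO, Cdc14a KO and wild type (SE 1.13 each, adjusted p from 0.28 to 0.4). Col1a1 stood at 2.18 ± 1.22 in Cdc14ab KO and 2.98 ± 1.22 in Cdc14b KO (adjusted p = 0.225 and 0.182), and the interaction that compares the changes of Cdc14b-null and Cdc14b-intact lines did not pass for it (-1.88 ± 1.22, adjusted p = 0.392) or for Col3a1 (-2.28 ± 1.20, adjusted p = 0.28). With the cell line as a block, Col16a1 was also called higher in Cdc14ab KO (2.39), Cdc14b KO (2.46) and Cdc14a KO (2.60), and in Cdc14a KO so were Col2a1 (1.91), Col5a2 (3.04) and Lama4 (2.20, adjusted p = 0.0371). With 2 libraries a group the counts rest on single libraries: leaving out any 1 of the 4 libraries of the genotype at days 0 and 7 brought them to 0 to 3 in Cdc14b KO and 4 to 5 in Cdc14a KO. In wild type the count was 7 and 5 without clone 1 and clone 3 of day 0, and 2 without clone 3 of day 7.

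Whether the genotypes differed was tested directly by setting the 4 Cdc14b-null libraries of a day against the 4 Cdc14b-intact ones. At day 0 limma called 0 of 40 members (0.0124% of all genes were called), with 0 at an unadjusted p under 0.05, and 0 by edgeR and by DESeq2. At day 2 it called 0 (0% of all genes), with 3 at an unadjusted p under 0.05, Col11a1, Col13a1 and Lama1, and 0 by edgeR and by DESeq2. At day 7, 2 members were lower and none higher, where 3.75% of all genes were called, 0.805% higher and 2.95% lower: Col11a1, a minor fibrillar chain that sets fibril width, and Col4a6. At an unadjusted p under 0.05 limma gave 7 members, and edgeR called 1 and DESeq2 3. The median log2 difference was -0.58 over the 40 members and -0.01 over all genes.

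Col11a1 read 50.1, 26.0, 31.4 and 38.5 normalized counts in the Cdc14b-null libraries of day 7 (Cdc14ab KO and then Cdc14b KO, clones 1 and 3), against 86.9, 97.7, 113 and 127 in the Cdc14b-intact ones (Cdc14a KO and then wild type). The groups did not overlap, as was so for 7.87% of all genes in this direction and 7.72% in the other, and the difference was -1.54 ± 0.32 (limma adjusted p = 0.0134). At day 0 it read 14.2 to 53.2 in the Cdc14b-null libraries, against 15.3 to 29.9 in the Cdc14b-intact ones. The change between day 7 and day 0 was smaller in the Cdc14b-null lines by -1.99 ± 0.46 (adjusted p = 0.0315), and Col11a1 was the 1 member called in that interaction, where 3.26% of all genes were, 1.58% higher and 1.68% lower. The day 7 call was lost when any of 4 libraries was left out, Cdc14ab KO clone 3, Cdc14b KO clone 1, Cdc14a KO clone 3 or wild-type clone 3, with an adjusted p up to 0.102, and at its weakest the difference was -1.31. The interaction was lost without any of 10 libraries: at day 0 Cdc14ab KO clone 1, Cdc14b KO clone 3, both Cdc14a KO clones and wild-type clone 3, and at day 7 Cdc14ab KO clone 3, Cdc14b KO clone 1, both Cdc14a KO clones and wild-type clone 3 (adjusted p up to 0.103).

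Col4a6 differed by -2.50 ± 0.68 at day 7 (limma adjusted p = 0.048), with the groups not overlapping at the values given above. It missed the threshold with edgeR (adjusted p = 0.06), with TMM factors (adjusted p = 0.0505) and without Cdc14ab KO clone 3 (-2.07, adjusted p = 0.151), and in all was lost without 16 of the 24 libraries, taken 1 at a time. Col4a5 and Col3a1 also had Cdc14b-null libraries wholly below the Cdc14b-intact ones, and did not pass (adjusted p = 0.169 and 0.186). Some neural progenitor markers moved with these genes. Of 8 tested, 3 were lower in the Cdc14b-null lines at day 7, where 2.95% of all genes were. They were Nkx6-1 (-4.85 ± 0.60), Hes5 (-4.10 ± 0.65) and Ptprz1 (-3.79 ± 0.62). The part of the make-up of the cultures in the collagen result was not tested.

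None of the 11 basement membrane members, which do not include Col4a6, and none of the 3 fibrillar members, which do not include Col11a1, passed this test by limma. Lama4, Lama5 and Col3a1 had an unadjusted p under 0.05. Lama5 ran higher, at 220, 241, 248 and 142 normalized counts in the Cdc14b-null libraries of day 7, against 89.1, 161, 89.5 and 73.4 in the Cdc14b-intact ones. Lama4 ran lower, at 49.1, 58.8, 36.5 and 121.5, against 66.25, 144.9, 116.3 and 263.8, and both genes overlapped. Col1a1 read 1549, 159, 631 and 696 normalized counts in the Cdc14b-null libraries of day 7, against 1905, 1740, 2331 and 1515 in the Cdc14b-intact ones, which overlapped through Cdc14ab KO clone 1 alone. The difference of -1.69 ± 0.86 missed the threshold (limma adjusted p = 0.299), and without Cdc14ab KO clone 3 it was -0.87 (adjusted p = 0.645). Col3a1 stood at -2.05 ± 0.85 and Col1a2 at -1.06 ± 0.80, so differences of this size could not be told from the spread between lines. Fibroblast markers summed to 943 to 3565 in the Cdc14b-null libraries, against 1530 to 3895 in the Cdc14b-intact ones, and 0 of 14 passed, where 3.75% of all genes did. Col4a1 stood at -0.05 ± 0.42 and Col4a2 at -0.07 ± 0.50, and Lama1 at -0.74 ± 0.71 with and -1.85 without Cdc14ab KO clone 3 (adjusted p = 0.626 and 0.0988).

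**Figure D5:**
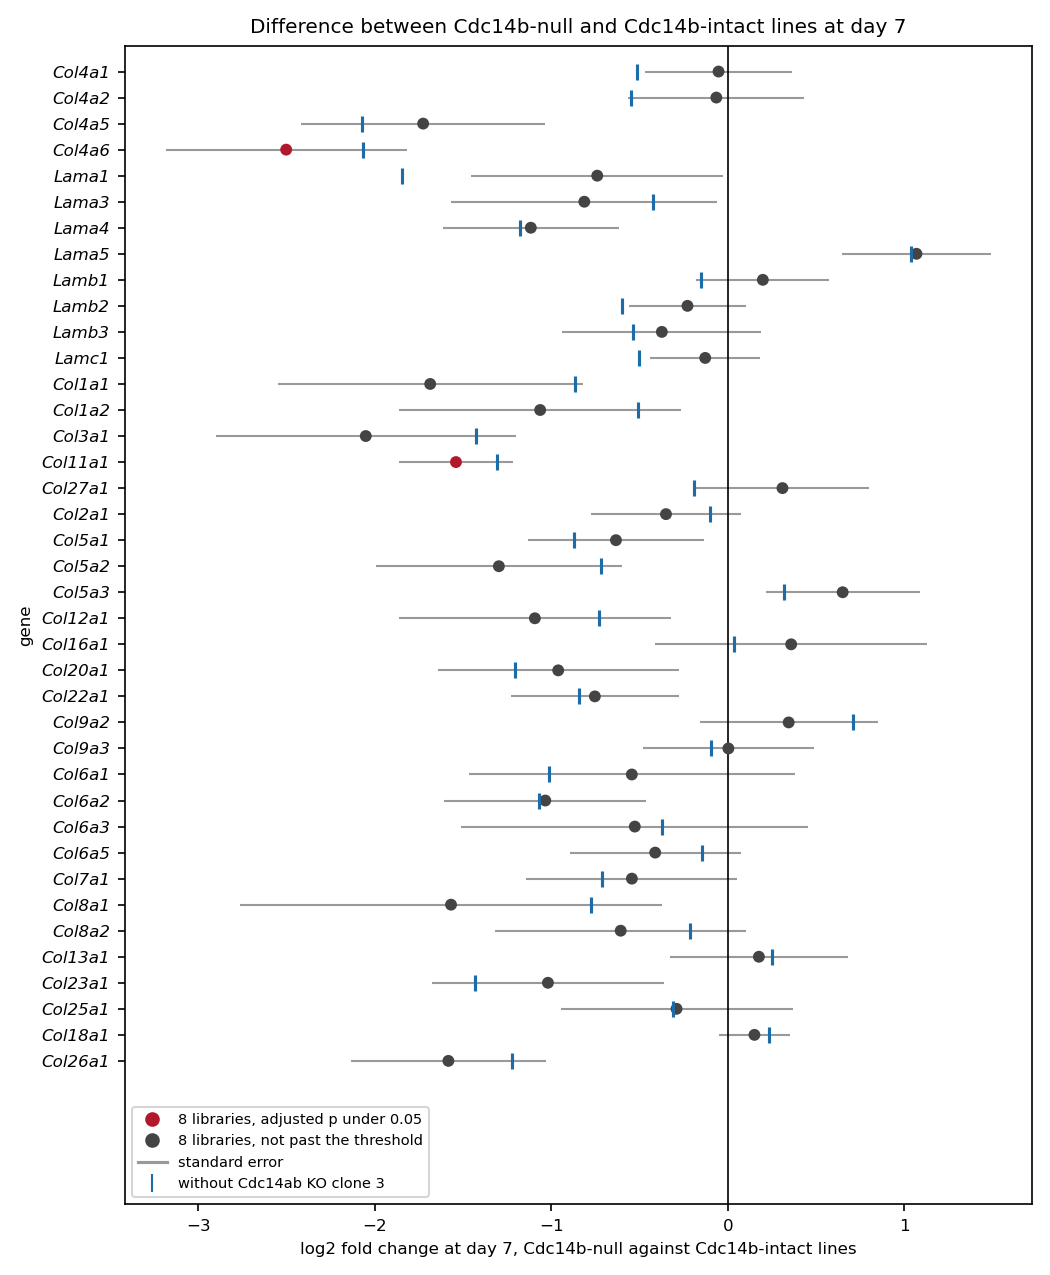
Log2 fold change at day 7 of Cdc14b-null against Cdc14b-intact lines for the members; points are the fit to all libraries with standard errors, red where the limma adjusted p was under 0.05, and blue ticks the same value without Cdc14ab KO clone 3. Col4a6 (-2.50) and Col11a1 (-1.54) are the red points, and the tick of Lama1 (-1.85) lies far left of its point (-0.74).

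Against wild type at day 7, limma called 0 of 40 members in Cdc14ab KO (1.53% of all genes called, 0.0805% higher and 1.45% lower), 0 in Cdc14b KO (0% called) and 0 in Cdc14a KO (0% called). At an unadjusted p under 0.05 there were 8, 2 and 1, edgeR called 0, 0 and 0, and DESeq2 called 1, 1 and 0. The 1 gene DESeq2 called in both was Col11a1, at limma differences of -1.70 ± 0.46 in Cdc14ab KO and -1.76 ± 0.46 in Cdc14b KO. In Cdc14a KO it stood at -0.38 ± 0.46. The 3 comparisons share the wild-type libraries.

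Cdc14ab KO clone 3 at day 7 was read apart from the other day 7 libraries in opposite directions for the 2 groups. Its basement membrane sum was 8724 normalized counts, against 2297 to 3964 in the other 7, with Lama1 at 530 against 11.1 to 165, Col4a1 at 1479 against 292 to 728, and Col4a2 at 1006 against 134 to 426. Col1a1, Col1a2 and Col3a1 were each below all 7. In the same library the perlecan gene Hspg2 stood at 5482, against 733 to 2077, nidogen Nid1 at 518 against 95.3 to 201, and Tinagl1 at 510 against 24.4 to 129. Trophoblast markers summed to 46160 in that library, against 6801 to 12280. The keratin genes Krt18 and Krt8 gave 23240 and 9745 of that 46160, and Tfap2c gave 9016. Krt7, Cdx2, Gata3, Hand1 and Plac1 were also above the other 7, at lower counts, and Eomes (47.8, against 16.3 to 51.7) lay within their range. The primitive and parietal endoderm markers summed to 2111, against 515 to 1128. Pth1r alone gave 1447 of that 2111, against 191 to 621 in the other 7. Foxa2, Dab2, Lrp2 and Plat of the endoderm list lay within the range of the other 7. Of the defining endoderm genes, Gata4 stood at 18.5 in that library, against 1.01 to 4.07 in the other 7, Sox17 at 25.2 against 0 to 4.37, and Gata6 at 34.4 against 2.56 to 31.4. The part of such cells in the collagen IV and laminin values of this library was not tested.

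The partners of these chains were followed from lists chosen with earlier results of these data known. Of all genes tested between day 7 and day 0, 38.2% were called, 20.9% higher and 17.4% lower. Of 15 other basement membrane genes tested, 9 were higher and 3 lower between day 7 and day 0, with a median log2 fold change of 0.86. Sparc, which binds collagen, rose by 1.76 ± 0.20, Egflam, the pikachurin of neural synapses, by 3.97 ± 0.45 and Tinagl1 by 3.82 ± 0.59, while Frem2 fell by 1.70 (SE 0.26). The nidogens, which bridge laminin and collagen IV, parted: Nid1 rose by 0.95 ± 0.28 and Nid2 fell by 1.97 (SE 0.32, adjusted p = 1.21e-04). Of 12 receptor genes for laminins and collagens, 6 were higher and none lower, among them Itga3 (1.24 ± 0.21), Ddr2 (3.14 ± 0.56) and Itga1 (1.33 ± 0.26). Of 26 genes of collagen biosynthesis, 10 were higher and 1 lower, led by Colgalt2 (3.68 ± 0.38), which adds galactose to collagen, P4ha2 (2.13 ± 0.25), a prolyl hydroxylase, P3h2 (1.99 ± 0.29) and the collagen chaperone Serpinh1 (2.69 ± 0.40). Markers of primitive and parietal endoderm and of trophoblast, cells known for basement membrane production, were also tested in this interval. In each list 6 of 9 were higher and none lower. The endoderm genes Gata4 and Sox17 did not pass the filter, and their medians were under 3 normalized counts on each day. The part of these cells in the basement membrane result was not tested.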

How the data were processed

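The authors deposited 1 table of 17545 genes by 24 libraries. Its unit is a signal, normalized counts as the authors deposited them. The submitters' processing notes name the build GRCm38 and the programs HTSeq 0.6.1, DESeq2, SAMtools 0.1.19, TopHat2 2.0.10, FastQC 0.11.7 and Bowtie 1.0.0, without saying what each did; no source used here gives the annotation. In each column the lowest value above 0 divided the rest into whole numbers (tolerance 0.001, 100% of values), and this recovered 6422883 to 10856721 reads per library.

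Log2(normalized count + 1) was fitted with limma 3.58.1 (R 4.3.3; 12 group means, trended and robust moderation, 12 residual degrees of freedom), on the 16158 genes that reached 10 normalized counts in 2 or more libraries. P-values were adjusted by Benjamini-Hochberg over all of them, with a threshold of 0.05, and fold changes are on that log scale. Alternatives were pseudocounts of 0.25 and 5, no filter and a filter of 50, scaling by TMM, the recovered reads tested with edgeR 4.0.16 or DESeq2 1.42.0, only the groups compared, a replicate block, and left-out libraries. The scripts were tested on simulated data. There the day 7 test of Cdc14b-null against Cdc14b-intact lines recovered 12.4% of 2-fold and 79.6% of 4-fold changes. Day 7 against day 0 recovered 50.2% and 96%. The changed genes were drawn only from those above a minimum mean count. Recovery was thus not measured for members read little, such as Col4a5, Col4a6 and Lama3. The fibrillar members had larger standard errors than the median gene of that genotype test (0.39), so these shares need not hold for them. A member not called between genotypes may therefore still differ by such amounts. One member counts in the totals and sums, and its own values are not reported here. The other members were accounted for, with Col4a1, Col4a2, the laminins and the 3 fibrillar members named whatever they showed, up to 8 other called members per comparison, and up to 4 called genes per partner or marker list; by smallest adjusted p; further members and list genes, such as Nid1, Nid2, Mmp2, S100a4 and Hspg2, were named after their values were seen. The members and lists were chosen with earlier results of these data known. For the block, lines across days are the same lines by the labels; deviations of the same line on different days correlated at -0.12 to 0.25 over 12 pairs. Overlapping genes on the opposite strand were separated by the strand-specific kit, per the labels' protocols. Chromosome positions come from GENCODE M21 and promoter sequences from RefSeq.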

Additional observations from a re-analysis of the deposited data

Results flagged for a closer look

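In each day, the 14 basement membrane and fibrillar members were examined over all 8 lines and over the 4 Cdc14b-null and 4 Cdc14b-intact lines, 126 groups in all, and in 7 of them 1 library lay far from the others by the gap to its neighbour over the range of the group. Chance alone marks about 1 in 20 such groups, and these groups share libraries. Lamb1 was low in Cdc14ab KO clone 1 at day 0, at 357 normalized counts with the next library at 1018, and high in Cdc14ab KO clone 3 at day 7, at 4398 with the next at 1910. Lama1 was low in Cdc14a KO clone 1 at day 0, at 14.6 with the next at 33.1. Lama3 was low in Cdc14ab KO clone 3 at day 2, at 0.726 with the next at 5.07. Among the Cdc14b-intact lines, Lama4 was low in wild-type clone 1 at day 2, at 10.6 with the next at 24.2, and Lamb3 was low in wild-type clone 3 at day 7, at 3.42 with the next at 10.5. Among the Cdc14b-null lines Lamb3 was low in Cdc14ab KO clone 1 at day 7, at 3.93 with the next at 6.71. The change of Col11a1 between day 7 and day 0 differed between Cdc14b-null and Cdc14b-intact lines by -1.99 on the log2 scale, by the interaction term of limma (adjusted p = 0.0315).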

How the results depend on the processing

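No called result changed direction under any alternative run, and TMM factors moved the median of all genes by at most 0.02 on the log2 scale. Counts of members called that left the 1.5-fold range were as follows, with the cause not tested. For Cdc14b-null against Cdc14b-intact lines at day 7 (2 in the report), 1 was called with a pseudocount of 0.25, TMM factors, edgeR, a filter of 50, only the groups compared, or without the libraries rich in Gm42418. For the interaction (1 in the report), 0 were called without the Gm42418-rich libraries and 2 without the 3 day 2 libraries highest in fibroblast markers, an alternative chosen after seeing the data that also gave 3 for day 2 against day 0 (9 in the report). For day 7 against day 0, Cdc14ab KO (7) had 1 with only the groups compared and 2 without the Gm42418-rich libraries, Cdc14b KO (5) had 1 without them, and wild type (11) had 18 with only the groups compared. Cdc14ab KO against wild type at day 7 (0) had 1 with a pseudocount of 5 and 1 with DESeq2, and Cdc14b KO against wild type (0) had 1 with DESeq2.

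Leaving out each library in turn, where a group left with 1 library is assumed to vary like the others, gave 23 to 26 members for day 7 against day 0, 6 to 10 for day 2 against day 0, 14 to 18 for day 7 against day 2, 0 to 2 for Cdc14b-null against Cdc14b-intact at day 7 and 0 to 1 for the interaction. By genotype it gave 1 to 7 in Cdc14ab KO, 0 to 5 in Cdc14b KO, 4 to 16 in Cdc14a KO and 2 to 12 in wild type, and 0 to 1 for Cdc14ab KO against wild type; the 4 other comparisons stayed at 0 to 0. With the replicate block, 26, 11 and 17 members were called between the days, 2 at day 7 between Cdc14b-null and Cdc14b-intact lines and 1 in the interaction. By genotype the block gave 8 in Cdc14ab KO, 6 in Cdc14b KO, 16 in Cdc14a KO and 11 in wild type. Beside the changes given with the results, it ended the call of Col4a6 between day 7 and day 2 (adjusted p = 0.052). In the genotype comparisons the block was the clone number, which the labels tie to no shared litter or day. Same-numbered clones of different genotypes deviated together in all 6 pairs of genotypes at day 0 (r from 0.12 to 0.51) and all 6 at day 7 (0.23 to 0.54). At day 2 the r of these pairs ran from -0.13 to 0.63, and a pairing cannot be told from the labels. With or without it, the same members were called in each genotype comparison. Members read at a few counts, such as Col4a5, Col4a6 and Lama3, are limited by depth.

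For single genes, leaving out a library kept the call or its absence in 5806 values, ended a call in 278 and made one in 12; edgeR did so in 243, 10 and 1, and DESeq2 in 238, 2 and 7.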

Other observations

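Markers of other cell types that carry basement membranes changed in both directions between day 7 and day 0, where 20.9% of all genes were called higher and 17.4% lower. Of 6 endothelial genes tested, 3 were higher by limma, Esam (log2 1.69 ± 0.31), Tie1 (1.86 ± 0.43) and Kdr (1.19 ± 0.30), and 2 were lower, Cldn5 (-2.01 ± 0.44) and Tek (-1.20 ± 0.39). Of 7 neural crest genes, 4 were higher, among them Snai2 (1.79 ± 0.47) and Tfap2b (2.11 ± 0.60), and Foxd3 was lower (-1.44 ± 0.37). The median log2 fold change was 0.65 over the endothelial and 1.01 over the neural crest list.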
